A study of Mus musculus with 6 samples.

Results

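The genes described here are 36 members of the pathways that sense DNA damage and repair it. The assay was ATAC-seq, where a transposase cuts and tags accessible chromatin so that open sites collect reads. The cells were granulocyte-monocyte progenitors (GMPs), sorted by flow cytometry out of total bone marrow. A peak belonged to a gene when it overlapped the gene body, or lay within 50 kb with that gene as the nearest protein-coding gene. By this rule 271 of 182166 consensus peaks belonged to the 36 genes, and 253 of them passed a filter of at least 10 normalized reads on average. Each gene had between 1 and 30 tested peaks, with a median of 5. No peak belonged to more than 1 of the 36 genes.

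The libraries came from untreated C57BL/6 mice of a pair of genotypes. GFI1-KI/KI mice carry human GFI1 in place of murine Gfi1, and GFI1-KD/KD mice express 10 to 20% of human GFI1 rather than murine Gfi1, so that neither genotype has the mouse protein. Each genotype had 3 libraries, called KI1, KI2 and KI3 or KD1, KD2 and KD3. The labels do not say that each library came from a separate animal, so p-values reflect only how much these libraries varied, and that variation may be technical. A lower value can mean that fewer cells have a site open or that it is less open in each cell, and these cannot be told apart.

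GFI1 is a zinc-finger repressor that directs blood progenitors towards granulocytes, and it has also been linked to DNA repair through an arginine methyltransferase that modifies MRE11 and 53BP1. Cells mend DNA by several routes. Double-strand breaks are joined end to end or copied from the sister chromatid by homologous recombination, bulky lesions and altered bases are cut out by excision repair, copying errors are removed by mismatch repair, and kinases such as ATM and ATR halt the cell cycle meanwhile. Dividing progenitors rely on all of these, and inherited loss of Fanconi anaemia genes leads to bone marrow failure.

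The series as a whole sets the background. GFI1-KI libraries had 19408373 to 27741446 reads in peaks, GFI1-KD libraries had 16022763 to 19857646, and 3 reads corresponded to 2.27 to 3.70 normalized reads. Chromosome Y peaks had 499 to 865 reads in 4 libraries, 1 in KI2 and 0 in KD1. KI1 was the library whose depth lay within the GFI1-KD range. Start-site peaks, meaning peaks within 1 kb of a gene's start, took a share of normalized reads of 42.9 to 44.0% (GFI1-KI) or 41.0 to 41.6% (GFI1-KD). Of 10 progenitor markers, 8 had a tested start-site peak, among them Mpo, Elane, Kit and Cd34, at 850.5 to 898.4 normalized reads per gene (GFI1-KI) and 785.9 to 840.0 (GFI1-KD). The 4 erythroid markers were at 238.4 to 272.6 and 203.0 to 222.6, and 3 of 4 B cell markers at 73.2 to 84.1 and 78.0 to 90.9. Of 4 T cell markers 1 had such a peak, at 63.1 to 84.6 and 55.6 to 71.6, and of 4 mature macrophage markers 2, at 119.7 to 159.9 and 140.1 to 154.6. The progenitor and erythroid levels were lower in GFI1-KD without overlap, and their part in the results was not tested.

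Every one of the 36 genes had a strong start-site peak, and 2 of these 36 peaks differed between the genotypes, both lower in GFI1-KD. Of all start-site peaks 7.02% were lower and 2.0% higher. The 2 peaks lay at Msh6, which recognises mismatches, and Mgmt, which removes alkyl groups from guanine directly. The sequences before the starts of these genes are shown with those of Ogg1 and Fancc, which had the highest start-site levels per kb among genes that shared the peak with no other gene's start. They are the 250 bases before the start given in the RefSeq promoter table, 5′ to 3′ on the gene's strand, from GRCm38.p6 (mm10). For Fancc, Mgmt and Ogg1 the annotated gene begins upstream of that start, and for Fancc it begins upstream of the whole stretch shown. The windows are chr17:87974800-87975049 (+ strand) for Msh6, chr7:136894336-136894585 (+) for Mgmt, chr6:113326726-113326975 (+) for Ogg1 and chr13:63431746-63431995 (- strand) for Fancc, and all 250 bases lay inside the peak in each case. Capitals mark the letters AATC (the core of the GFI1 motif), CCGGAAG (ETS factors), CCAAT (NF-Y) and GGGCGG (SP and KLF factors), searched on both strands.
Msh6: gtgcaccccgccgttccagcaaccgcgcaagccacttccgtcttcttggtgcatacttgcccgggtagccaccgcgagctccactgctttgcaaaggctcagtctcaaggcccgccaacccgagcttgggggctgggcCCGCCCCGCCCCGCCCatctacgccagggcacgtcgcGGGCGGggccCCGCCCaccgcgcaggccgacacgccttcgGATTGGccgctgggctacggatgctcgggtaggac
Mgmt: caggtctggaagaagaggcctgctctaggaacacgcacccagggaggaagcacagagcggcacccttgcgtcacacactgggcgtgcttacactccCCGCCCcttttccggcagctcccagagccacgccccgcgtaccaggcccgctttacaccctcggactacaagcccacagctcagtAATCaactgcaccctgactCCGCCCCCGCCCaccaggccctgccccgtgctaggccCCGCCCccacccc
Ogg1: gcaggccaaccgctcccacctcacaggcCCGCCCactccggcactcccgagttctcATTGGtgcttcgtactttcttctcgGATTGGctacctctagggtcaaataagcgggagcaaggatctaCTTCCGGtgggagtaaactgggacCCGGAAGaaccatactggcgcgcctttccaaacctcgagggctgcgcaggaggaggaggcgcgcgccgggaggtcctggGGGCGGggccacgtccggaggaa
Fancc: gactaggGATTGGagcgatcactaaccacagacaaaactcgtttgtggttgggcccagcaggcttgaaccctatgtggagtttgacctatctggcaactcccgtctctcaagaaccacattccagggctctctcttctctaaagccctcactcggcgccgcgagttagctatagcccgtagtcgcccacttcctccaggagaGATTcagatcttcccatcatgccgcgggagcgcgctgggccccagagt
The Msh6 stretch holds GGGCGG 5 times, the Mgmt stretch 4 times, the Ogg1 stretch 2 times and the Fancc stretch 0 times. AATC occurs 1 time in each but Fancc, which has it 2 times. In Msh6, Ogg1 and Fancc the letters GATTGG are a reverse AATC that overlaps a reverse CCAAT. Only Ogg1 has CCGGAAG, 2 times.

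These letters were then counted in all promoter windows of 300 bases, from 250 before to 50 after the start, 1 window per gene. RefSeq windows matched 29 of the 36 genes. Among the 29, AATC was in 23 (79.3%), against 73.7% of 27025 windows of all genes. CCAAT was in 17 (58.6%, against 38.0%), GGGCGG in 19 (65.5%, against 35.9%) and CCGGAAG in 9 (31.0%, against 9.14%). The cyclic AMP response element TGACGTCA was in Brca2 alone (1.85% of all windows) and the NRF1 motif in Lig4 alone (0.981%). The E2F forms TTTGGCGC and TTTCGCGC were in none of the 29, and in 0.537% and 0.326% of all windows. Such matches describe the letters only. The 27025 windows outnumber the 21887 protein-coding genes, so they include genes of other kinds, while the 29 are all protein-coding. The shares therefore do not set repair genes apart from other protein-coding genes.

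Peak levels at the start sites differed widely among the repair genes, and less between genotypes. Per kb of peak, the strongest start-site peak of a gene ran from 326.3 normalized reads at Xrcc5, which encodes the Ku80 end-joining protein, to 2357.3 at Ogg1, the glycosylase that removes oxidised guanine, with a median of 891.6. After Ogg1 came Xrcc3, a homologous recombination gene (2031.1), Chek2, a checkpoint kinase (1866.9), and Prkdc, the catalytic subunit of DNA-dependent protein kinase (1453.2). Low levels per kb besides Xrcc5 were those of Fancd2 (356.9), Xrcc2 (429.1), Brca2 (471.3) and Xpa (491.2). Of the 36 peaks, 17 were shared with the start of another gene, such as Brca1 with Nbr1, Atm with Npat and Prkdc with Mcm4. For 7 genes with no promoter entry (Xrcc2, Wrn, Rad50, Nbn, Prkdc, Fancd2 and Xpc) peaks at either end of the gene were taken in place of the start.

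**Figure D1:**
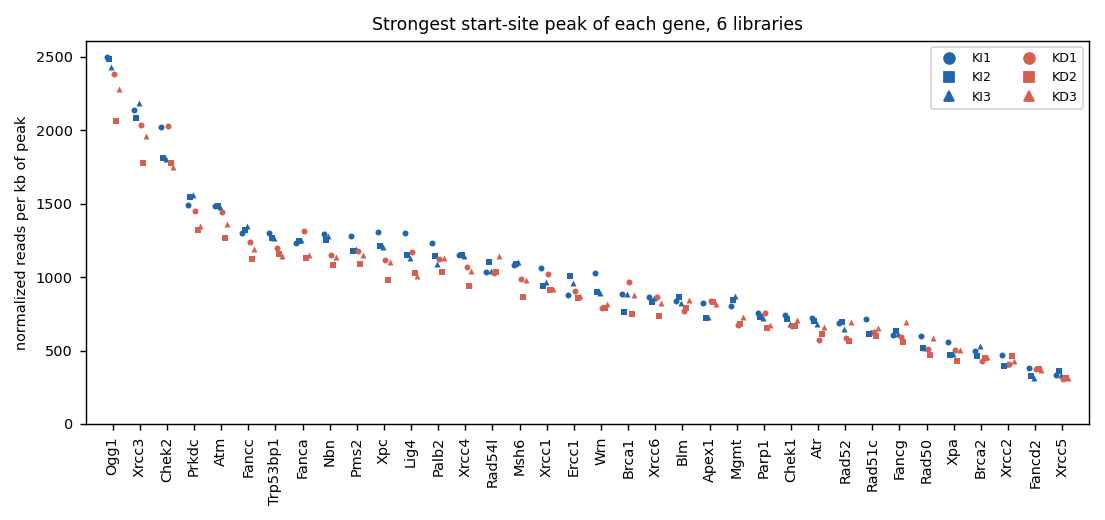
Normalized reads per kb in the strongest start-site peak of each of the 36 genes, 1 point per library (blue GFI1-KI, red GFI1-KD), in order of mean level. Levels fall from 2357.3 on average at Ogg1 to 326.3 at Xrcc5, and the points of both genotypes lie close together at each gene.

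The start-site peaks were lower rather than higher in GFI1-KD in most of the genes, by small amounts that few tests passed. The log2 fold change of the strongest start-site peak was below 0 in 31 genes and above 0 in 5, from -0.27 to 0.13, with a median of -0.10. The median over all tested start-site peaks was -0.09, so the repair genes lay where start sites in general lay. With median-of-ratios scaling the medians were -0.05 for both, and 29 of the 36 genes were below 0. At an unadjusted p under 0.05 there were 12 of the 36. None of the 4 highest levels per kb passed the test, with log2 fold changes of -0.14 ± 0.06 (SE) at Ogg1 (limma adjusted p = 0.151), -0.15 ± 0.06 at Xrcc3 (0.132), -0.02 ± 0.07 at Chek2 (0.876) and -0.16 ± 0.05 at Prkdc (0.0682).

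Mgmt had the lowest fold change of these. Its start-site peak, on chromosome 7 from 136894261 to 136895077, held 657.5, 688.0 and 709.1 normalized reads in KI1, KI2 and KI3 and 550.0, 554.1 and 595.4 in KD1, KD2 and KD3. Each GFI1-KD value was below each GFI1-KI value, and the log2 fold change was -0.27 ± 0.08 (SE, limma adjusted p = 0.025). The Msh6 start-site peak, on chromosome 17 from 87974508 to 87975884, held 1491.9, 1498.8 and 1518.6 in GFI1-KI and 1354.6, 1191.0 and 1353.8 in GFI1-KD. The groups again did not overlap, and the log2 fold change was -0.21 ± 0.06 (limma adjusted p = 0.0279). Neither call was firm. That of Mgmt was lost without KI2, KI3 or KD1 (adjusted p = 0.119, 0.155 and 0.0507) and in DESeq2 (0.0931). That of Msh6 was lost without KI2, KI3 or KD2 (0.115, 0.141 and 0.0666), with median-of-ratios scaling (0.0593), in edgeR (0.0661) and in DESeq2 (0.15).

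Over all peaks of the 36 genes, 40 of 253 tested (15.8%) differed between genotypes at a limma adjusted p under 0.05, 21 higher and 19 lower in GFI1-KD. Of all 170733 tested peaks 10.5% were called, 8520 higher (4.99%) and 9352 lower (5.48%), and with median-of-ratios scaling 11659 and 7768. The median log2 fold change was -0.07 over the members' tested peaks and -0.05 over all tested peaks. Called members had a median absolute log2 fold change of 0.76, against 0.75 for all called peaks. At least 2-fold changes numbered 14, of which 3 were higher and 11 lower. The same split over all called peaks is not given here. Several of the lower ones (-1.05 to -2.39) and 1 of the higher (1.29) lay at Wrn, whose surrounding segment is described below. The genotypes did not overlap in 82 of the 253 tested peaks, against 28.8% of all tested peaks. They also did not overlap in 36 of the 40 called peaks. A call favours peaks whose groups stand apart, so the 28.8% is no measure for these.

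The calls lay mostly away from the start sites of their own genes. Among member peaks at the start of their own gene 3 of 55 tested (5.45%) were called. Of all peaks at the start of any gene 9.02% were called. The third, beside those of Msh6 and Mgmt, is an Xpc peak that counts because either end of that gene was taken. Among peaks away from start sites 37 of 198 (18.7%) were called, against 10.8% (5.63% higher and 5.15% lower). A call was made at 17 genes, of which 8 had calls only higher, 5 only lower and 4 in both directions, and 19 had none. The same counts over all genes are not given here, so these cannot be read as a trait of repair genes. In 15 of the 17 the strongest start-site peak was not called. Wrn alone held 8 calls, and without it 32 of 237 peaks (13.5%) were called, 20 higher and 12 lower. Without KI2 16 member peaks were called (6.32%, against 4.24% of all peaks), without KI3 17 (6.72%, against 4.1%) and without KD3 23 (9.09%, against 6.33%). Without KI1, KD1 and KD2 the shares were 18.2%, 16.2% and 10.7%, against 13.0%, 9.97% and 7.28% of all peaks. Each of the 6 libraries was left out in turn, and 11 of the 40 calls held every time. The same count over all called peaks is not given here, so it is no trait of repair genes.

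**Figure D2:**
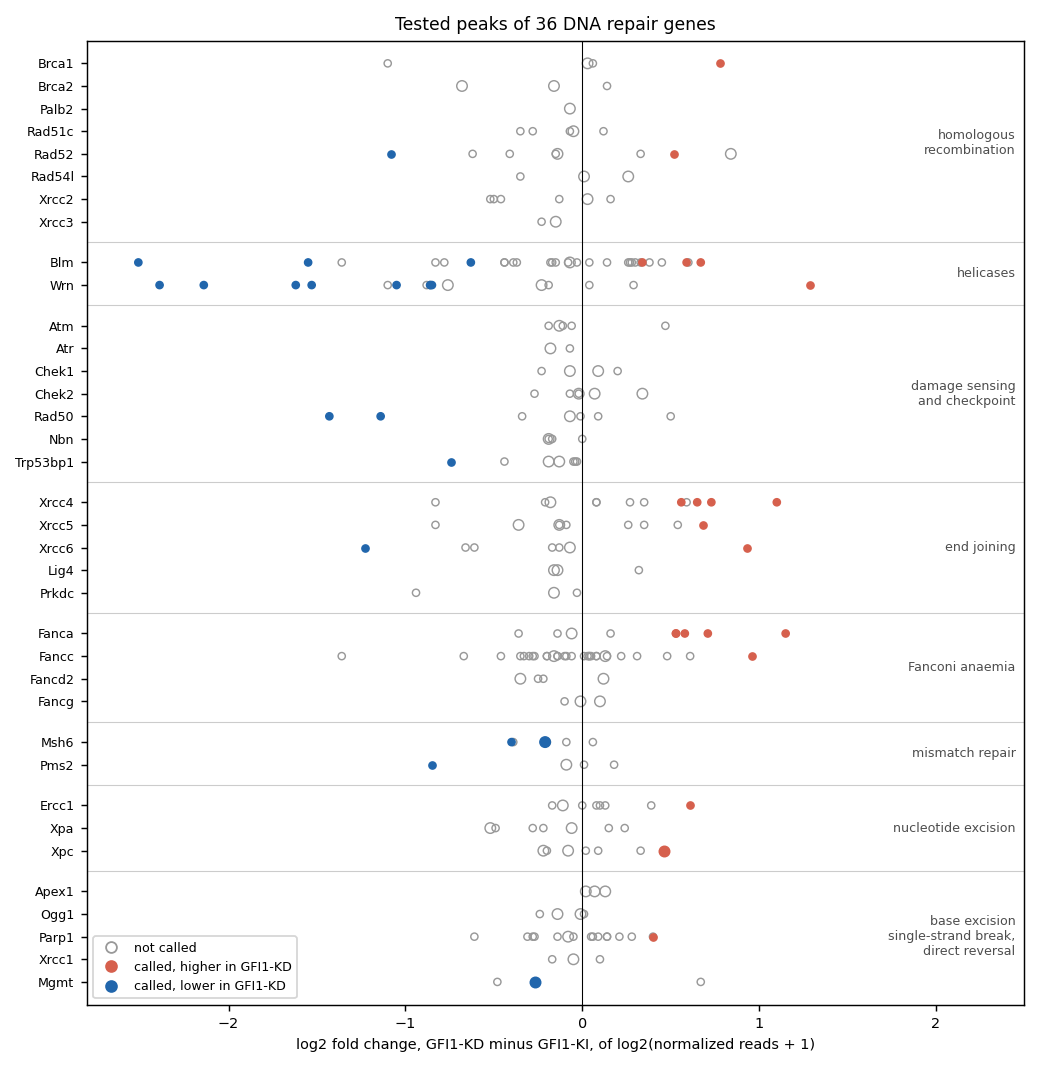
Log2 fold change (GFI1-KD minus GFI1-KI, on the log2(normalized reads + 1) scale) of each of the 253 tested peaks, 1 row per gene, grouped by pathway. Filled points were called (21 higher, red, and 19 lower, blue), open grey points were not, and large points lie at the start of that gene. Start-site points gather near 0 and the called points lie mostly away from them, with Wrn, Blm, Fanca and Xrcc4 holding the most.

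Helicases held the most calls. BLM and WRN are RecQ helicases that unwind recombination intermediates and stalled forks, and they are lost in Bloom and Werner syndromes. Of 45 tested peaks 4 were higher, 10 lower and 31 not called (31.1% called, against 10.5% of all peaks). Of the 14 calls 8 lay at Wrn, where 36.7% of the other peaks within 1 Mb were called too.

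At Wrn, on chromosome 8 from 33234372 to 33385543, 7 of 16 tested peaks were lower and 1 was higher in GFI1-KD. The strongest peak other than the start site, from 33377974 to 33378550, 7.4 kb from the centre of the start-site peak, held 219.6, 186.7 and 171.4 normalized reads in KI1, KI2 and KI3. It held 6.4 in KD1, 93.8 in KD2 and 117.5 in KD3, so that all GFI1-KD libraries were lower but KD1 was nearly empty. The log2 fold change was -2.14 ± 0.57 (limma adjusted p = 0.0178), and without KD1 it was -0.86 (0.000739). With robust variance estimation and in DESeq2 the peak was not called (adjusted p = 0.389 and 0.49). Outside the gene body, 31.5 kb from it, the peak from 33202554 to 33202845 held 30.4, 43.8 and 42.3 in GFI1-KI and 1.1, 16 and 11.1 in GFI1-KD. Its log2 fold change was -2.39 ± 0.50 (limma adjusted p = 0.00378), without KD1 -1.45 (0.00156), and it was not called with robust variance estimation (0.137) or in DESeq2 (0.0974).

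Inside the Wrn body, the peak from 33308051 to 33308342 held 33.8, 33.3 and 42.3 against 6.4, 17.3 and 12.2, a log2 fold change of -1.62 ± 0.31 (limma adjusted p = 0.00189). This call held without each library in turn and in DESeq2. The 1 peak that rose, from 33330621 to 33330864, held 6.8, 13.1 and 10.6 against 33.2, 23.4 and 21.1 (1.29 ± 0.32, limma adjusted p = 0.0123, lost without KD1 at 0.0617). The other 4 called peaks were lower by -0.85 to -1.53, and their calls were lost without 1 to 6 single libraries, among them KD1 for 3 of them (adjusted p = 0.0521, 0.085 and 0.0582) and KI2 for the outermost (0.0657). The start-site peak, shared with Purg, was at 573.9 in GFI1-KI and 488.0 in GFI1-KD on average and was not called (limma adjusted p = 0.0832). The Wrn peaks summed gave 1324.1, 1187.7 and 1159.9 against 692.3, 914.5 and 974.6, a log2 fold change of -0.52 ± 0.09 (limma adjusted p = 0.000379 over 17729 genes).

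The segment around Wrn differed from those around the other repair genes. Within 1 Mb of Wrn, 69 of 188 tested peaks that belong to other genes or to none were called (36.7%), 25 higher and 44 lower, and 10 of these changed at least 4-fold. Around the other 35 genes the share ran from 7.24% (Ercc1) to 16.2% (Atr and Lig4), with a median of 10.1% over all 36. Of the 51 lower peaks in the Wrn segment, its own included, KD1 was the lowest of the 3 GFI1-KD libraries in 46, against 24.2% of all lower peaks. Of the 26 higher peaks KD1 was the highest in 20, against 49.7% of all higher peaks. The changes at Wrn therefore cannot be told apart from those of the surrounding segment.

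**Figure D3:**
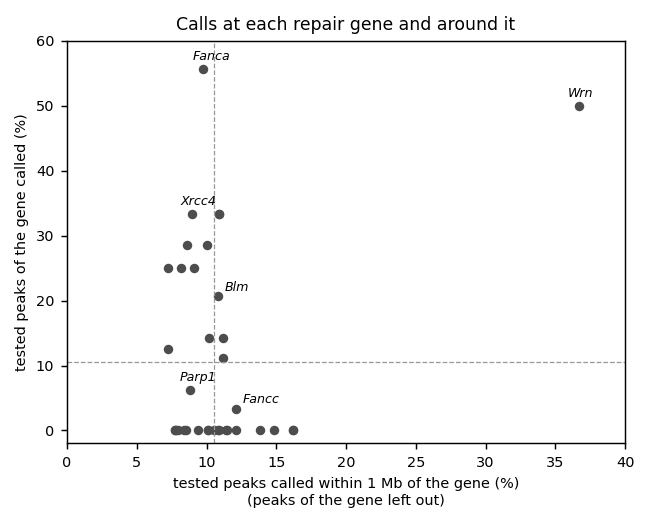
Share of a gene's own tested peaks that were called (vertical axis, %) against the share called among other peaks within 1 Mb (horizontal axis, %), 1 point per gene, with dashed lines at 10.5%, the share of all tested peaks. Wrn stands apart to the right at 36.7%, while Fanca is as high on the vertical axis with 9.78% around it.

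At Blm, on chromosome 7 from 80454993 to 80535148, 3 peaks were higher and 3 lower of 29 tested, and the directions separated by place. All 3 higher peaks lay inside the gene 33.8 to 39.4 kb from the start-site peak, and the 3 lower ones lay farther off, at 67.5 to 92.8 kb. The strongest of the first kind, from 80495214 to 80495889, held 327.6, 326.9 and 321.7 in GFI1-KI and 544.6, 449.2 and 484.5 in GFI1-KD, without overlap. Its log2 fold change was 0.59 ± 0.09 (limma adjusted p = 0.000391), and the call held without each library in turn. The lower peak 4.9 kb outside the gene, from 80449811 to 80450112, held 47.3, 79.8 and 88.4 against 31.0, 27.2 and 14.4 (-1.55 ± 0.27, limma adjusted p = 0.000765) and also held each time.

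The outermost Blm peak, 12.7 kb outside the gene from 80442032 to 80442331, was split within GFI1-KI. KI1 and KI3 held 81.1 and 80, while KI2 held 7.0, within the GFI1-KD values of 4.3, 7.4 and 5.5. Its log2 fold change of -2.51 ± 0.57 (limma adjusted p = 0.00675) became -3.62 without KI2 and was not called without KI3 (0.0768) or with robust variance estimation (0.238). The other 3 called Blm peaks changed by -0.63 ± 0.17, 0.67 ± 0.19 and 0.34 ± 0.10, and each call was lost without KI2, KI3 or KD2, among others (adjusted p = 0.055 to 0.169). The start-site peak averaged 1118.8 and 1065.5 (limma adjusted p = 0.52), and the summed Blm peaks 3412.5 and 3441.1 (0.897).

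**Figure D4:**
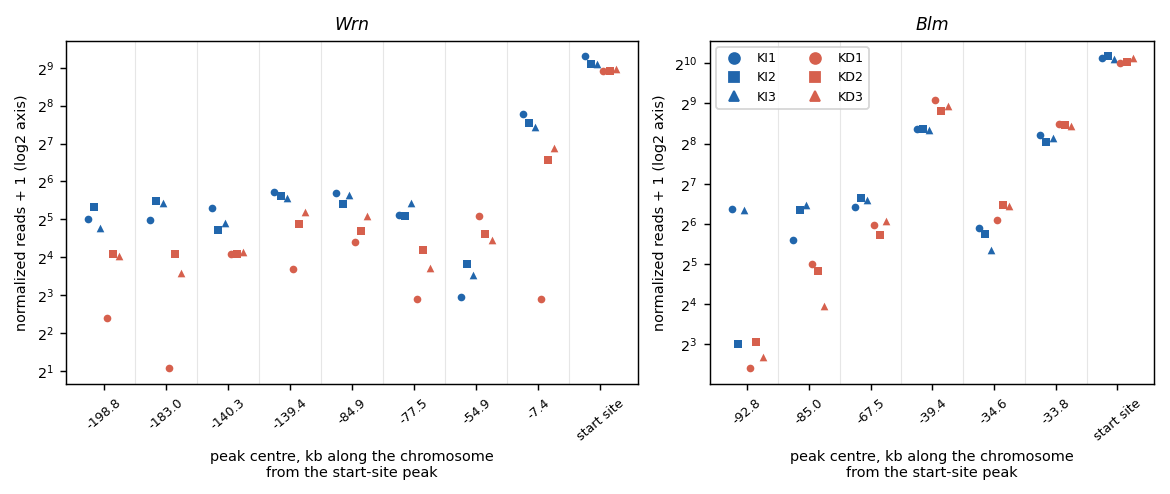
Normalized reads plus 1 (log2 axis) of each called peak and the start-site peak of Wrn and Blm in the 6 libraries (blue GFI1-KI, red GFI1-KD), by distance in kb along the chromosome from the start-site peak. At Wrn the KD1 circles are lowest in 6 of the 7 lower peaks, and at the outermost Blm peak KI2 sits with the GFI1-KD libraries.

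Among the 4 Fanconi anaemia genes, calls were made mainly at Fanca. The products of these genes act in the repair of crosslinks between DNA strands. FANCA, FANCC and FANCG belong to a core complex, and FANCD2 is the protein it ubiquitinates. Of 46 tested peaks 6 were higher, 0 lower and 40 not called (13.0% called, against 10.5% of all peaks). Fanca held 5 of the 6, out of 9 tested peaks. The gene lies on chromosome 8 from 123266294 to 123318651, and all 5 peaks lay in its body.

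The clearest Fanca peak, 12.5 kb from the start-site peak from 123305852 to 123306143, held 22.5, 19.3 and 24.2 in GFI1-KI and 55.6, 42.0 and 53.2 in GFI1-KD. The groups did not overlap, the log2 fold change was 1.15 ± 0.22 (limma adjusted p = 0.00182), and the call held without each library in turn. A run of 3 neighbouring peaks from 123279872 to 123281061 rose together by 0.53, 0.53 and 0.71. The middle one held 340.0, 236.7 and 253.0 against 445.1, 365.3 and 381.4 (limma adjusted p = 0.00691). In all 3 of them KI1 was the highest of the GFI1-KI libraries, and the outer peaks overlapped between genotypes.

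Without KI2 the calls of the run were lost (adjusted p = 0.245, 0.0644 and 0.13), the outer ones also without KI3 (0.105 and 0.126) or KD3 (0.0863 and 0.0787), the first also without KD1 (0.143) and the last without KD2 (0.0512). That of the fifth peak, from 123292822 to 123293123 (0.58 ± 0.19, limma adjusted p = 0.046), was lost without any 1 of the 6 libraries (0.0588 to 0.179). Summed over its peaks, Fanca held 1794.7, 1482.2 and 1572.3 against 2048.0, 1750.1 and 1845.0 (0.22 ± 0.07, limma adjusted p = 0.0313). The Fanca start-site peak averaged 741.6 and 714.5 and was not called (0.689).

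Fancc, with 30 tested peaks, had 1 call. It lay inside the gene on chromosome 13 from 63458692 to 63459056, with 21.4, 14.0 and 25.7 against 28.9, 46.9 and 45.5 normalized reads (0.96 ± 0.26, limma adjusted p = 0.0214). The call was lost without KI2, KD2 or KD3 (0.135, 0.101 and 0.0985). None of the 4 tested Fancd2 peaks and 3 Fancg peaks passed the test.

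Among the 5 end joining genes, most calls were made at Xrcc4. Ku, the pair of XRCC5 and XRCC6 proteins, holds broken ends, PRKDC is the kinase it recruits, and XRCC4 with LIG4 seals the break. Of 34 tested peaks 6 were higher and 1 lower (20.6% called, against 10.5% of all peaks), and 27 were not called, among them all 3 at Lig4 and all 3 at Prkdc.

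Xrcc4, on chromosome 13 from 89848914 to 90089608, had 4 of 12 tested peaks higher and none lower. All 4 lay 197.2 to 254.9 kb from its start-site peak, around the other end of the gene, 2 of them outside it by 14.1 and 9.9 kb. The peak from 89883601 to 89883905 held 32.7, 32.4 and 21.9 in GFI1-KI and 64.2, 62.9 and 59.9 in GFI1-KD, without overlap (1.10 ± 0.21, limma adjusted p = 0.00166), and held without each library. The others rose by 0.56 to 0.73. Their calls were lost without KI3 (0.0741, 0.259 and 0.283) or KD3 (0.0526, 0.0955 and 0.139), and each without 1 or more of the other libraries (0.0699 to 0.12). The start-site peak pointed the other way without passing the test, at 1147.5 and 1014.7 on average (-0.18 ± 0.06, limma adjusted p = 0.0789).

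Xrcc5, on chromosome 1, had 1 of 9 peaks higher. That peak lay in the gene body 13.4 kb from the start-site peak, from 72320609 to 72321302, and held 176.8, 129.7 and 158.6 against 288.9, 209.8 and 246.1. The groups did not overlap, and its rise of 0.68 ± 0.14 (limma adjusted p = 0.00321) held without each library in turn. Xrcc6, on chromosome 15, which encodes Ku70, had 1 peak higher and 1 lower of 7. The lower one, from 82027743 to 82028136, held 52.9, 50 and 37.8 against 23.5, 13.6 and 22.2 (-1.23 ± 0.25, limma adjusted p = 0.00292) and held each time. In the higher one, from 81991131 to 81991248, KI1 held 466.1, within the GFI1-KD values of 538.2, 459.1 and 430.2, while KI2 and KI3 held 176.2 and 185.0. Its log2 fold change of 0.93 ± 0.22 (limma adjusted p = 0.00833) was lost without KI2 (0.0609) or KI3 (0.0548), with robust variance estimation (0.307) and in DESeq2 (0.311), and was 1.39 without KI1.

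**Figure D5:**
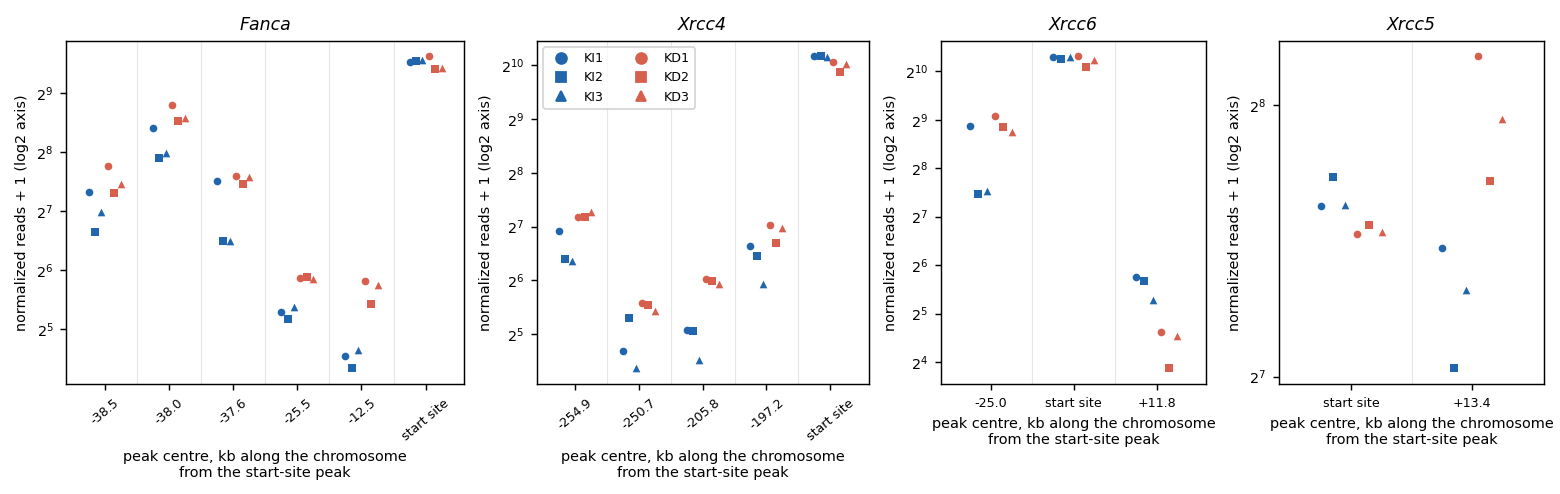
Normalized reads plus 1 (log2 axis) of each called peak and the start-site peak of Fanca, Xrcc4, Xrcc6 and Xrcc5 in the 6 libraries (blue GFI1-KI, red GFI1-KD), by distance in kb along the chromosome from the start-site peak. GFI1-KD points lie above GFI1-KI points in most called peaks, KI1 lies nearest to them in the run of 3 Fanca peaks and in the first Xrcc6 peak, and the start-site points differ little by comparison.

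Damage sensors and checkpoint kinases had 3 lower peaks and none higher among 35 tested (8.57%), a share below the 10.5% of all peaks. RAD50 and NBN bind broken ends together with MRE11, ATM and ATR are the kinases that signal the break, CHEK1 and CHEK2 stop the cycle, and 53BP1, encoded by Trp53bp1, steers breaks to end joining. Rad50 held 2 of the 3. It lies on chromosome 11 from 53649519 to 53707319, and the 2 peaks lay near the end away from its start-site peak. This gene also houses a control region for neighbouring cytokine genes in T helper cells. The peak from 53655060 to 53655395 held 47.3, 69.2 and 54.4 in GFI1-KI and 36.4, 13.6 and 16.6 in GFI1-KD (-1.43 ± 0.28, limma adjusted p = 0.00234). Its neighbour from 53656741 to 53657190 held 49.5, 68.4 and 58.1 against 32.1, 17.3 and 31.0 (-1.14 ± 0.24, 0.00357). In both the genotypes did not overlap, and both calls held without each library in turn.

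A peak inside Trp53bp1, which also overlaps Map1a, on chromosome 2 from 121295314 to 121295654, held 37.2, 48.2 and 44.6 against 33.2, 24.7 and 20.0 (-0.74 ± 0.23, limma adjusted p = 0.0424). It was not called with median-of-ratios scaling (0.0553) or equal totals (0.0518), in DESeq2 (0.199), or without KI2, KI3, KD2 or KD3 (0.186, 0.151, 0.0968 and 0.162). No peak was called at Atm (5 tested), Atr (2), Chek1 (4), Chek2 (6) or Nbn (4). Summed over its 4 peaks, Nbn was lower, with 1296.0, 1281.4 and 1295.9 against 1167.4, 1107.1 and 1139.8 (-0.18 ± 0.06, limma adjusted p = 0.0413), a call that edgeR (0.14) and median-of-ratios scaling (0.088) did not make.

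Homologous recombination genes had 2 higher and 1 lower of 32 tested peaks (9.38%). BRCA1, PALB2 and BRCA2 prepare the broken end for strand invasion, a step in which the products of Rad51c, Xrcc2, Xrcc3, Rad52 and Rad54l also take part. The Brca1 call lay in the gene body on chromosome 11 from 101543560 to 101543856, 8.4 kb from the start-site peak, with 27.0, 35.1 and 37.0 against 54.6, 53.1 and 63.2 normalized reads. The groups did not overlap (0.78 ± 0.20, limma adjusted p = 0.0153), and the call was lost without KD3 (0.0748). Its start-site peak, shared with Nbr1, averaged 546.3 and 561.1 (0.03 ± 0.09).

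Rad52, on chromosome 6, had a call in each direction. Outside the gene by 8.6 kb, the peak from 119892751 to 119893075 held 28.1, 45.6 and 46.1 against 20.3, 14.8 and 18.8 (-1.08 ± 0.25, limma adjusted p = 0.00844). Inside it, the peak from 119915733 to 119916233 held 241.0, 145.5 and 167.6 against 242.9, 259.2 and 279.4 (0.52 ± 0.14, 0.0222), where KI1 lay just under KD1. Both were lost without KI2 (0.0691 and 0.173) or KI3 (0.0745 and 0.103), and the second also without KD2 (0.0646) or KD3 (0.104). Brca2, Palb2, Rad51c, Rad54l, Xrcc2 and Xrcc3 had no call among 3, 1, 5, 3, 6 and 2 tested peaks.

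Mismatch repair genes had 3 lower peaks of 10 tested and none higher, at Msh6 and Pms2, against 5.48% of all peaks lower and 4.99% higher. MSH6 takes part in finding mismatches, and PMS2 in cutting the new strand. Beside its start-site peak, Msh6 had a lower peak in the gene body from 87984625 to 87985212, with 264.6, 255.1 and 252.2 against 191.5, 195.0 and 197.4 (-0.40 ± 0.11, limma adjusted p = 0.0198), the groups standing apart with little spread. Its call was lost without KI2, KI3 or KD3 (0.0888, 0.0776 and 0.0544) and in DESeq2 (0.0642). The summed Msh6 peaks were lower by -0.21 ± 0.06 (limma adjusted p = 0.022), and with median-of-ratios scaling too (0.0363), but were not called in edgeR (0.0518) or DESeq2 (0.0716). A peak inside Pms2, on chromosome 5 from 143917480 to 143917731, held 45.0, 63.1 and 48.3 against 25.7, 22.2 and 38.8 (-0.85 ± 0.23, 0.0195). That call was lost without KI2, KI3 or KD2 (0.137, 0.0569 and 0.0902) and in DESeq2 (0.0828).

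Excision repair and direct reversal genes had few calls. Nucleotide excision genes had 2 higher of 22 tested peaks and none lower (9.09% called, near the 10.5% of all peaks). XPC and XPA find and check bulky lesions and ERCC1 belongs to a nuclease that cuts beside them. The Xpc call, on chromosome 6 from 91488705 to 91489250, lay just outside the end of the gene opposite its strongest start-site peak, and held 371.6, 312.9 and 324.0 against 409.8, 444.3 and 544.4 (0.46 ± 0.11, limma adjusted p = 0.00745). It was lost without KI2 (0.0562) or KD3 (0.0731). The Ercc1 call, 5.1 kb outside the gene on chromosome 7 from 19338690 to 19338952, held 50.7, 49.1 and 36.2 against 69.5, 76.5 and 62.1 (0.61 ± 0.19, 0.0389) and was lost without any library but KI1 (0.0596 to 0.221). No Xpa peak of 7 was called.

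Base excision, single-strand break and direct reversal genes had 1 higher and 1 lower of 29 tested peaks (6.9%), the lower one being the Mgmt start-site peak. PARP1 senses single-strand breaks, XRCC1 is the scaffold of their repair and APEX1 cuts at sites that have lost a base. The higher one of 16 Parp1 peaks lay in the gene body on chromosome 1 from 180587641 to 180588340, with 432.4, 313.8 and 352.7 against 496.5, 445.5 and 494.5 (0.40 ± 0.11, limma adjusted p = 0.0183), and was lost without KI2, KI3 or KD3 (0.159, 0.0863 and 0.0825). Apex1, Ogg1 and Xrcc1 had no call among 3, 4 and 3 tested peaks.

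With 1 summed value per gene, 5 of the 36 genes were called by limma, Fanca higher and Wrn, Nbn, Msh6 and Mgmt lower, against 17.2% of 17729 genes. Mgmt held 701.5, 740.6 and 762.0 against 589.6, 602.3 and 665.3 in all (-0.25 ± 0.08, adjusted p = 0.0271). The balance of directions turned with the scaling, with 683 genes higher (3.85%) and 2365 lower (13.3%) in the deposited scaling and 2097 higher (11.8%) and 1162 lower (6.55%) in edgeR, 18.4% in all. In edgeR 6 members were called, of which 1, Wrn (0.00601), was lower, and Xrcc5 (0.00274) and Fanca (0.0024) were among the 5 higher. Wrn and Fanca kept their direction and their call under both scalings and in DESeq2. Without KI2 or KI3 only Wrn of the 36 was called, while the share of all genes also fell, to 7.83% and 8.88%. The call of Fanca was lost without KI2, KI3, KD1 or KD3 (limma adjusted p = 0.187, 0.0752, 0.0936 and 0.0804), that of Msh6 without KI2, KI3 or KD2 (0.0606, 0.0523 and 0.069), that of Mgmt without KI2, KI3, KD1 or KD2 (0.103, 0.136, 0.0645 and 0.0711), and that of Nbn without any library but KD1 (0.0626 to 0.154).

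Other genes of the same pathways, 67 in a list drawn up from background knowledge, had 26 peaks higher and 25 lower of 458 tested (11.1%, against 10.5% of all peaks). A peak was assigned to 65 of them, and 24 had a call, again with no such count over all genes. Their start-site peaks had 0 higher and 9 lower of 100 tested, against 2.0% and 7.02% of all start-site peaks. Rad51b, a homologous recombination gene, had the most, with 9 higher and 3 lower of 82. Mismatch repair genes had 5 higher and 3 lower of 26, all at Mlh3, with 3 of 6 higher, and Msh3, with 2 higher and 3 lower of 9. Besides these, Ercc8, a nucleotide excision gene, had 3 of 11 lower, Ercc6 3 of 18 higher, and Aptx 3 higher and 1 lower of 17. End joining genes outside the 36 had 0 higher and 1 lower of 26, and homologous recombination and Fanconi genes 11 higher and 8 lower of 162. Among the latter, Fancf, Ube2t and Slx4 each had 1 lower peak and none higher, and Bard1 had 2 lower. Mre11a and Rbbp8 each had 1 higher peak and none lower. On summed peaks, Fancb, Fancf, Ube2t and Polm, an end joining polymerase, were lower (limma adjusted p = 0.0441, 0.0321, 0.0403 and 0.0341). None of these was called with median-of-ratios scaling (0.0828, 0.0759, 0.0839 and 0.0565) or in edgeR (0.121, 0.103, 0.127 and 0.0953). Bard1, Msh3, Ercc8, Rad23b, Topbp1 and Hus1 were called lower by limma too. None of these was called in edgeR (adjusted p = 0.0524 to 0.175) or DESeq2 (0.0954 to 0.243). Bard1, Msh3 and Rad23b were not called with median-of-ratios scaling either (0.0805, 0.101 and 0.0712), while Ercc8, Topbp1 and Hus1 were. Mlh3 (0.35, limma adjusted p = 0.0045), Ercc6 (0.21, 0.0236) and Clspn (0.22, 0.0378) were higher. Of all genes, 3.85% were higher and 13.3% lower. The genes named here were chosen after their values were seen.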

How the data were processed

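ATAC-seq signal was analysed in 6 libraries of sorted progenitors, 3 GFI1-KI and 3 GFI1-KD. The deposited signal is normalized reads per consensus peak in 1 table, in which the values of a library are its reads times a constant. In every library 100% of values were whole multiples of 1 step (tolerance 0.01 reads), so whole reads were recovered for count tests, in which edgeR called 21516 peaks. Per the submitters' processing notes, the tools were HOMER, ChIPseeker, DiffBind, MACS2, Picard, SAMtools, BWA and Trim Galore, with mm10 as the build and no roles stated. Not given in the sources used here are versions, scaling factors, how peaks were merged and any Tn5 offset. Columns named WT were taken as GFI1-KI, because the series title calls the genotype not low in GFI1 wildtype and the numbers match. Chromosome codes were read in alphabetical order, which put 16.0% of peaks within 1 kb of a gene end, against 2.6% in numeric order, over the 18 codes that differ. Genes were 21887 protein-coding genes of RefSeq (GRCm38.p6), and places inside a gene were not split into exons and introns.

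Peaks of mean at least 10 normalized reads were tested on log2(value + 1) in limma 3.58.1 with trended variance (R 4.3.3), and p-values were adjusted by Benjamini-Hochberg over 170733 peaks at a threshold of 0.05. Fold changes on this scale understate the change of low peaks. Gene sums were tested likewise over 17729 genes. Start sites came from RefSeq promoter windows, which can lie inside a gene, and from either gene end where none was listed. The fit was tested on simulated data. Alternatives were median-of-ratios scaling, equal totals, pseudocounts of 0.5 and 5, no filter and a mean of 50, a replicate block, robust variance, edgeR 4.0.16, DESeq2 1.42.0, a threshold of 0.01, gene bodies alone and leaving out each library. A term for chromosome Y reads was chosen after seeing the data. The peaks named are all called member peaks and, per gene, the strongest start-site peak, the 4 highest per kb with their test. The members and lists were chosen with earlier results of these data known. Python 3.11.15, pandas 2.3.3 and matplotlib 3.10.9 made tables and figures.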

Additional observations from a re-analysis of the deposited data

How the results depend on the processing

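Counts of called peaks were within 1.5 times those reported under both other scalings, both pseudocounts, no filter, robust variance, edgeR, the chromosome Y term and, for the members, gene bodies alone (31 peaks). DESeq2 gave 10819 calls over all peaks, 23 member peaks, 1 member start-site peak, 30 peaks of other repair genes and 3 member genes on summed peaks. A threshold of 0.01 gave 6896, 16, 1, 19 and 1. A mean of at least 50 gave 23 member peaks, and 12128 of 79435 over all peaks (15.3%). Leaving out 1 library, which also leaves fewer samples, gave 6996 to 22129 over all peaks, 16 to 46 member peaks, 0 to 7 member start-site peaks, 18 to 61 peaks of other repair genes and 1 to 6 member genes. The 0 is without KI2, at which 0 of 55 start-site peaks passed limma, against 15 at an unadjusted p under 0.05 with all libraries and 2 in edgeR. Replicate numbers did not pair the libraries. Deviations from the group means correlated at -0.024, -0.038 and 0.056 between libraries of the same number. Of these same-numbered pairs, only KI3 and KD3 were each other's best partner across genotypes. The highest correlation across genotypes was 0.085, between KI2 and KD1, the libraries with 1 and 0 chromosome Y reads. KI1 and KD2 were each other's best partner at 0.022. With the replicate block 5 member start-site peaks and 8 member genes were called. The share of all genes called also rose, from 17.2% to 22.7%. The share over all start-site peaks with this block is not given here. The Chek2 start-site peak, at -0.02, turned to 0.02 with median-of-ratios scaling, with equal totals and in edgeR, to 0.03 in DESeq2, and was 0.03 without KI1, 0.01 without KD2, 0.02 without KD3 and -0.09 to -0.05 without the others. The cause was not tested. Depth limits peaks at low values, and 21 of the 40 called member peaks had a mean under 50 normalized reads. This was not particular to the calls. The median level was 47.8 over called and 48.6 over all tested member peaks. Of all 170733 tested peaks 79435 had a mean of at least 50.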
